A study of Mus musculus with 4 samples.

Results

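The laminin chains are the 9 genes Lama1, Lama2, Lama3, Lama4, Lama5, Lamb1, Lamb2, Lamc1 and Lamc3, found by symbol among the 21933 genes of the count matrices. The family was selected on an earlier result of these data, the lower Lamc1 count in CrT-KO oligodendrocytes. The genotype values of the chains in oligodendrocytes are therefore given below as a description with no test. The choice named the comparison of genotypes over all cell types, so the tests in the other populations may not be independent of it.

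RNA of single nuclei from the right cerebral cortex was sequenced in adult male mice, with 2 Control libraries (CrT+/y) and 2 CrT-KO libraries (CrT-/y), each from 1 animal, none treated. CrT-KO males carried a partial deletion of Slc6a8, the X-linked gene of the creatine transporter, in every cell of the body, and the controls were wild-type littermates. The 4 matrices held 35694 nuclei and between 51507483 and 65240843 UMIs, and 34458 nuclei remained after removal of doublets, with 96 barcodes found in 2 libraries. Slc6a8 went with the labels, with 210 and 176 UMIs in Control and 61 and 47 UMIs in CrT-KO excitatory neurons. Clusters were named from marker genes as excitatory neurons (14972 nuclei), inhibitory neurons (6523), oligodendrocytes (5122), microglia (2221), oligodendrocyte precursors (OPCs, 661), astrocytes (495) and vascular nuclei (255), and 4209 nuclei stayed unnamed. Each named population held its own marker list at a summed level above that of every other list, and none of the defining markers of oligodendrocytes, OPCs, astrocytes or neurons was at 0 in any library. Among the microglial markers Pf4 or Itgam was at 0 in each library, and among the vascular markers between 1 and 6 were. Laminin genes were left out of the genes used for clustering.

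Laminins are secreted glycoproteins of the basement membrane, each a trimer of an alpha, a beta and a gamma chain. The gamma chain of Lamc1 and the beta chains of Lamb1 and Lamb2 are shared by many trimers, while the alpha chain carries the domains that bind integrins and dystroglycan on cells. In the brain, laminins coat vessels and the pial surface, and loss of the Lama2 chain in people causes a muscular dystrophy with changes of the white matter.

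The chains lie on several chromosomes of the build GRCm38. Lama2 spans chr10:26980036-27619758 on the minus strand (639.723 kb), Lamc1 spans chr1:153218922-153332786 on the minus strand (113.865 kb), and Lama4 spans chr10:38965515-39110188 on the plus strand (144.674 kb). Lama1 lies on chromosome 17 (125.389 kb), Lama3 on chromosome 18 (249.195 kb), Lama5 and Lamc3 on chromosome 2 (49.487 kb and 59.249 kb), Lamb1 on chromosome 12 (64.411 kb) and Lamb2 on chromosome 9 (10.795 kb). No gene counted in the matrices overlapped any of them. Since the counts covered whole gene bodies, introns included, levels of different chains are also compared per kb of gene body. Whether UMIs of these libraries scale with gene length was not tested, so ranks per kb depend on this division. Lamc1 had the most UMIs, 16833 over all nuclei, followed by Lama2 (7638), Lama4 (4414), Lama3 (2390), Lamb1 (2062), Lama1 (726), Lama5 (162), Lamc3 (134) and Lamb2 (35).

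Each population had its own set of chains. The level of a chain is given as CPM, its UMIs per 1000000 UMIs of the population in a library, as mean ± SD over the 4 libraries of both genotypes. These levels were not tested, since the populations were made from the same nuclei.

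Among the alpha chains, Lama2 was an astrocyte, vascular and oligodendrocyte gene. Its level was 1354 ± 188 CPM in astrocytes (SD, n = 4), 1252 ± 129 CPM in vascular nuclei and 299 ± 65.4 CPM in oligodendrocytes. The astrocyte and vascular levels overlapped between libraries, and both lay above every oligodendrocyte library. All other populations had between 5.83 and 13.9 CPM of Lama2, with OPCs the lowest. A Lama2 UMI was found in 89.4 ± 3.53% of astrocytes (SD, n = 4) but in 1.21 ± 0.636% of OPCs, although the median depths of these populations were similar, 2364 and 2597 UMIs per nucleus. With every nucleus thinned to 500 UMIs, the shares were 45.8% and 0.154%.

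Lama3, best known as the alpha chain of epithelial laminin, was highest in astrocytes (132 ± 33.3 CPM), followed by inhibitory neurons (31.9 ± 4.22 CPM), whose libraries did not overlap with those of astrocytes. Its level was 4.42 ± 1.09 CPM in excitatory neurons. Only 5 Lama3 UMIs fell in vascular nuclei and 1 in OPCs.

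Lama4, an alpha chain of vessel walls, was highest in vascular nuclei (241 ± 33.2 CPM). It was next highest in OPCs, where the 4 libraries had 108, 108, 75.6 and 108 CPM, against 4.71 ± 1.40 CPM in oligodendrocytes. Lama2 had the opposite order, higher in oligodendrocytes than in OPCs. Inhibitory neurons (31.4 ± 4.49 CPM) lay above excitatory neurons (18.6 ± 6.09 CPM) in Lama4, with every inhibitory library above every excitatory library.

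Lama1, the alpha chain of embryonic and pial basement membranes, was highest in vascular nuclei, with 344, 319.7, 604 and 166 CPM. Inhibitory neurons held 8.49 ± 1.45 CPM of Lama1 and excitatory neurons 0.324 ± 0.0738 CPM, and the libraries of these populations did not overlap. Lama5, the other main alpha chain of adult vessels, was sparse and led by vascular nuclei (37.4 ± 3.98 CPM from 13 UMIs). No Lama5 UMI was found in OPCs or microglia, which allows up to 1.70 and 1.33 CPM, a limit that covers counting error only.

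Of the beta chains, Lamb1 was mainly neuronal. Its level was 22.0 ± 3.02 CPM in inhibitory and 5.16 ± 0.386 CPM in excitatory neurons, from 842 and 673 UMIs. The vascular level of Lamb1, 47.6 ± 50.6 CPM, rested on 12 UMIs, of which 6 came from Control replicate 1, and it overlapped with that of inhibitory neurons. Lamb2 was near the detection limit everywhere, with 8 UMIs in vascular nuclei (21.7 ± 7.22 CPM) and 7 UMIs in astrocytes (6.13 ± 1.18 CPM). Lamb2 has the shortest gene body, and per kb its vascular level was 2.01 CPM against 0.739 CPM for Lamb1, the reverse of their order in CPM.

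Of the gamma chains, Lamc1 was found in every population. Its level was 403 ± 75.0 CPM in vascular nuclei and 249 ± 54.7 CPM in OPCs, which overlapped only between libraries of different genotype. Oligodendrocytes held 119 ± 39.4 CPM, below every OPC library. Inhibitory (73.2 ± 9.39 CPM) and excitatory neurons (68.6 ± 3.84 CPM) followed and overlapped with each other within CrT-KO but not within Control. Inhibitory neurons overlapped with oligodendrocytes only between Control inhibitory and CrT-KO oligodendrocyte libraries. Within each genotype, every oligodendrocyte library lay above every inhibitory library. Microglia (35.8 ± 14.4 CPM) and astrocytes (34.3 ± 9.37 CPM) were lowest and overlapped too. Markers of excitatory neurons summed to between 1239 and 1540 CPM in microglia, and how much of the microglial Lamc1 came from RNA outside the nuclei was not tested. Lamc3 was a vascular chain, with 304, 95.9, 129 and 111 CPM there and a mean of at most 0.538 CPM in the other named populations. No Lamc3 UMI was seen in OPCs or astrocytes, which allows up to 1.70 and 2.48 CPM.

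Per kb of gene body, Lamc1 was the leading chain of vascular nuclei (3.54 CPM per kb), OPCs (2.19), oligodendrocytes (1.05) and both neuron classes (0.643 in inhibitory and 0.602 in excitatory neurons). Astrocytes differed, since Lama2 led there with 2.12 ± 0.294 CPM per kb, followed by Lamb2 with 0.568 ± 0.109 from 7 UMIs, Lama3 with 0.528 ± 0.134, Lamc1 with 0.301 ± 0.0822 and Lamb1 with 0.105 ± 0.165. In oligodendrocytes, Lama2 followed Lamc1 with 0.467 CPM per kb, and every other chain stayed at or under 0.0330 CPM per kb. Without the division by length, Lama2 lay above Lamc1 in vascular nuclei (1252 against 403 CPM) and in oligodendrocytes (299 against 119 CPM).

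**Figure D1:**
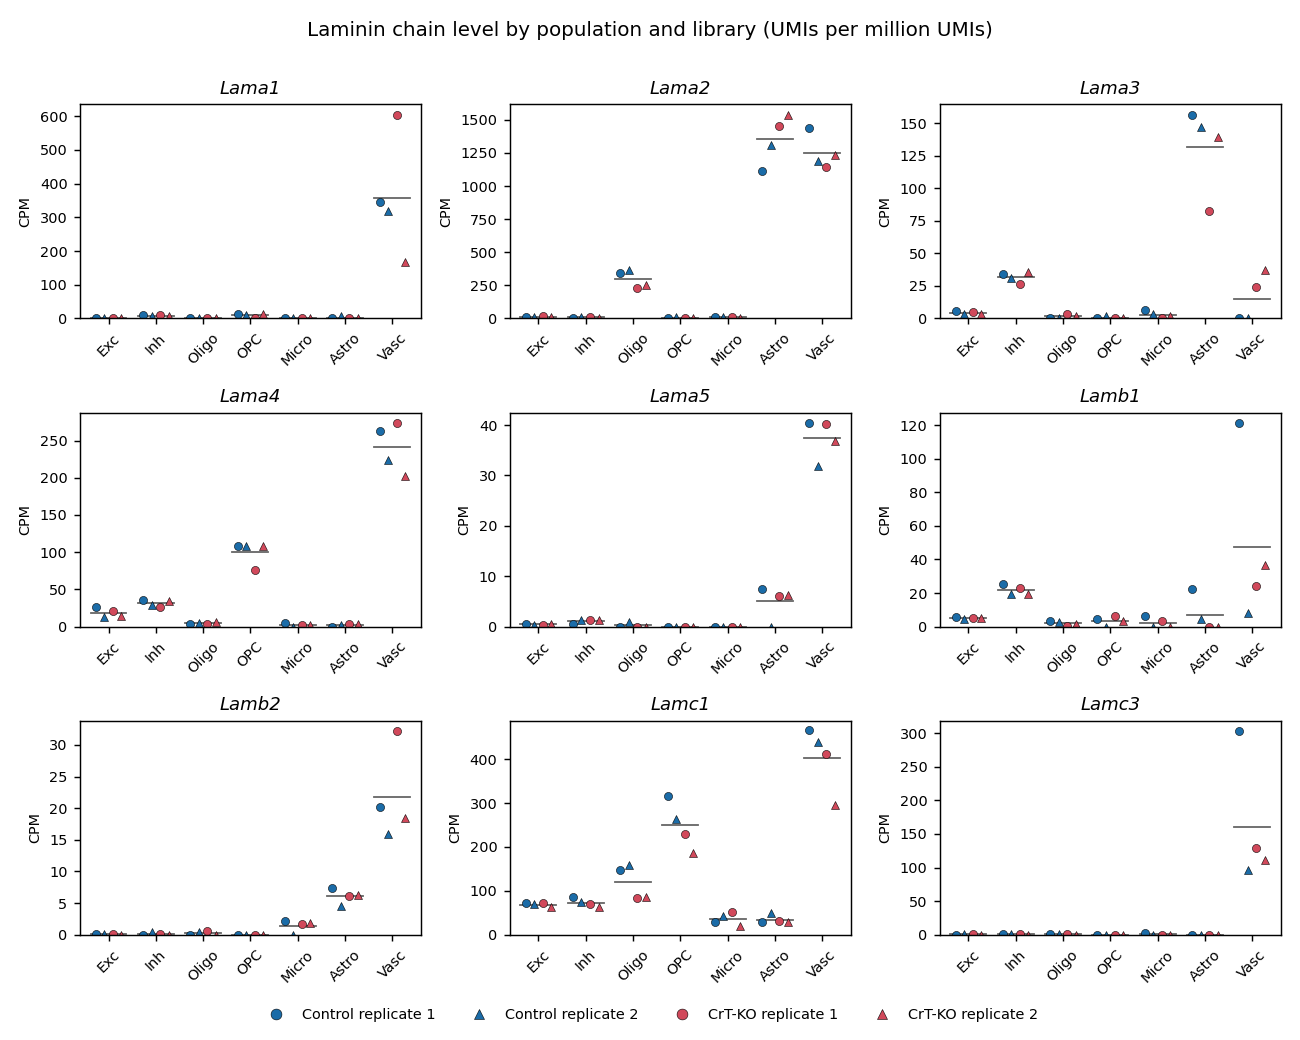
Level of each laminin chain (vertical axis, CPM, linear and scaled per panel) in the 7 populations, with 1 point per library (colour for genotype, shape for replicate number) and a line at the mean of the 4 libraries. Lama2 stands out in astrocytes, vascular nuclei and oligodendrocytes, Lama4 and Lamc1 in vascular nuclei and OPCs, and Lama1, Lama5, Lamb2 and Lamc3 in vascular nuclei.

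Within neurons, the alpha chains followed subclass. Subclasses were named from markers, as PV-like (parvalbumin), SST-like (somatostatin), VIP-like, LAMP5-like and MSN-like (striatal projection neuron markers) for inhibitory neurons, and by layer and projection type for excitatory neurons. MSN-like nuclei were 1712 of the 6523 inhibitory nuclei, so all values of the whole inhibitory population include them. Whether they came from outside the cortex was not tested. Lama4 was an SST-like chain, with 179, 171, 147 and 167 CPM there against at most 2.41 CPM as the mean of any other named inhibitory subclass. An SST-like cluster of 570 nuclei in which Lama4 was the leading gene by fold had 205 ± 18.3 CPM. Lama3 was instead highest in PV-like nuclei (105, 101, 82.6 and 101 CPM) and VIP-like nuclei (46.1, 50.3, 61.3 and 110 CPM), whose ranges overlapped, with 7.19 CPM in SST-like nuclei. A PV-like cluster of 182 nuclei held 184 ± 12.5 CPM of Lama3. Lama1 was spread over SST-like (16.5 ± 7.86 CPM), PV-like (11.8 ± 3.43 CPM) and LAMP5-like nuclei (9.84 ± 2.89 CPM), which all overlapped, and was 0.795 ± 0.595 CPM in MSN-like nuclei. An unnamed inhibitory cluster of 77 nuclei, led by Nos1 and Tacr1, had the highest neuronal Lama1 level, 78.7 ± 31.4 CPM.

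Lamb1 differed less between the inhibitory subclasses, with means from 16.3 to 24.2 CPM and overlapping libraries. Its highest neuronal levels were in smaller clusters, a PV-like cluster of 55 nuclei (145 ± 30.7 CPM) that was led by Mctp2, Unc5b and Pde3a, and an unnamed cluster of 122 nuclei led by Hs3st2 and Pde3a (149 ± 45.3 CPM), in which Lama3 was also high (162 ± 49.4 CPM). Lamc1 ranged from 51.6 ± 13.01 CPM in SST-like to 93.7 ± 10.2 CPM in LAMP5-like nuclei.

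In excitatory neurons, Lama2 and Lama4 were both highest in L4/5 IT-like nuclei. Lama2 was 28.1 ± 6.14 CPM there, above all libraries of L2/3 IT-like nuclei (15.2 ± 2.69 CPM), and at most 5.36 CPM in the other named subclasses. Lama4 was 45.6 ± 17.6 CPM in L4/5 IT-like nuclei and 13.4 ± 5.64 CPM in L2/3 IT-like nuclei. Among the named subclasses, Lama3 had its highest mean in L5/6 NP-like nuclei (15.9 ± 10.9 CPM). Control replicate 2 held only 3 Lama3 UMIs there (3.91 CPM), so the range overlapped with that of L2/3 IT-like nuclei. An unnamed excitatory cluster of 189 nuclei had 58.2 ± 12.5 CPM of Lama3. Lamc1 was lowest in L6 CT-like nuclei (31.1 ± 3.49 CPM) and highest in L2/3 IT-like nuclei (86.3 ± 4.39 CPM), where it overlapped with L6 IT-like nuclei (77.0 ± 13.7 CPM).

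Lama4 and Lama3 also differed between libraries in a way that crossed genotype. In excitatory neurons, Lama4 was 25.9 CPM in Control replicate 1 and 21.2 CPM in CrT-KO replicate 1, against 12.5 and 14.8 CPM in the replicate 2 libraries. The same order held in 6 of 6 excitatory subclasses with at least 50 Lama4 UMIs, nuclei with no subclass name counted as 1 of them, and in 0 of 2 inhibitory ones. Lama3 had 5.43 and 5.28 CPM in the replicate 1 libraries and 3.23 and 3.77 CPM in the replicate 2 libraries of excitatory neurons, with the same order in 3 of 3 excitatory subclasses. Lamb1 and Lamc1 had the same order in excitatory neurons by smaller margins, and in 1 of 3 and 3 of 8 excitatory subclasses. Lama1, Lama2 and Lama5 did not have it in the whole population. Of all genes tested in excitatory neurons, 20.1% had both replicate 1 libraries above both replicate 2 libraries. The subclasses are parts of the same library sums, and no such share was computed for them. The labels do not say what replicates of the same number share.

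**Figure D2:**
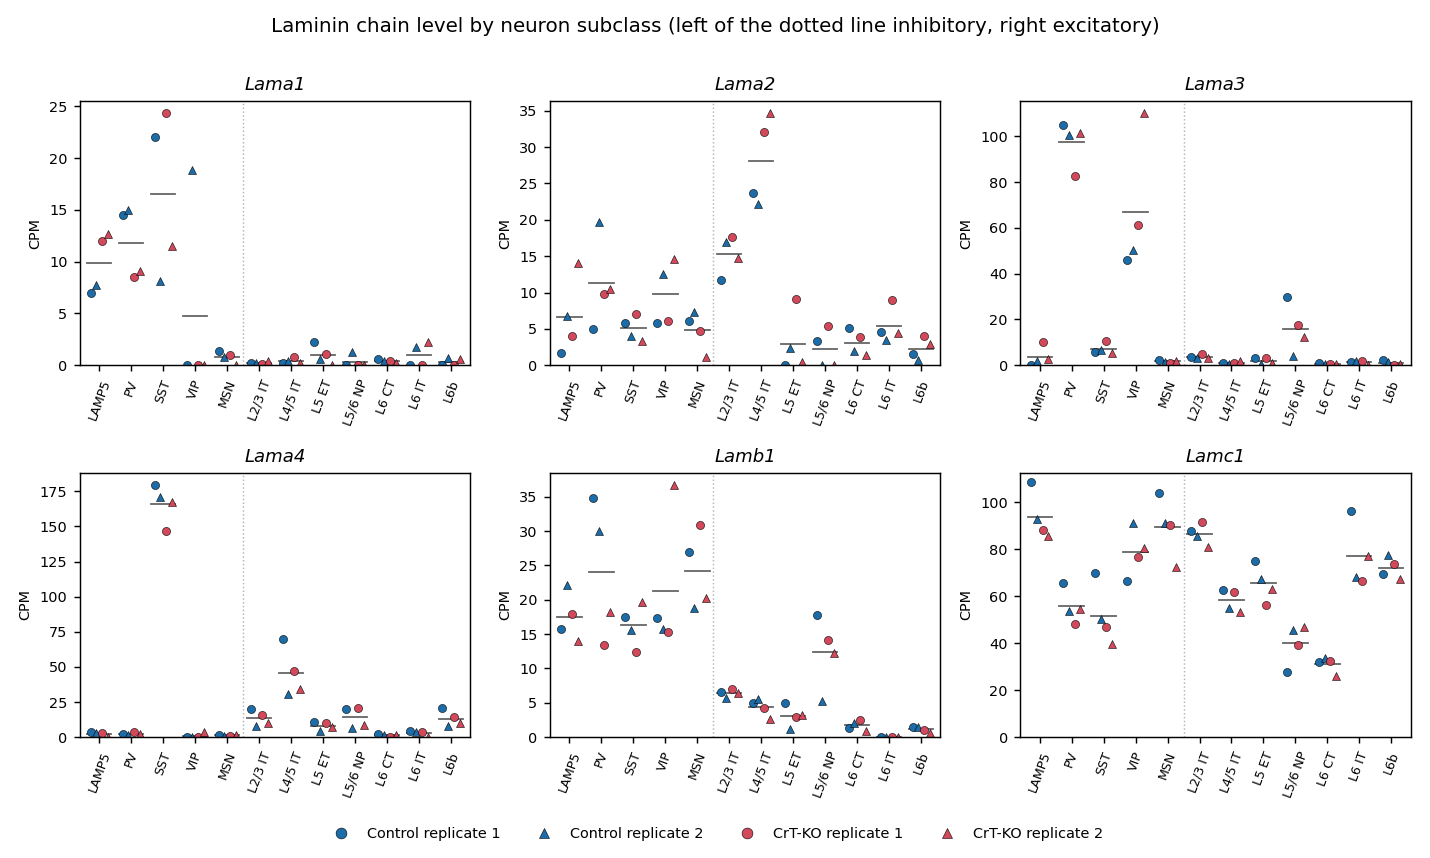
Level of 6 chains (vertical axis, CPM, linear and scaled per panel) in 5 inhibitory and 7 excitatory subclasses, with 1 point per library and a line at the mean. Lama3 peaks in PV-like and VIP-like nuclei, Lama4 in SST-like nuclei, and the circles (replicate 1) lie above the triangles (replicate 2) for Lama4 in L2/3 IT-like, L4/5 IT-like, L5 ET-like, L5/6 NP-like and L6b-like nuclei.

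The vascular nuclei were few, 75 endothelial-like, 96 mural-like (pericytes and smooth muscle), 52 fibroblast-like and 32 unnamed nuclei, so each value rested on few UMIs. Their chains differed nonetheless. Lama1 was fibroblast-like, with 1044, 1299, 2302 and 1079.8 CPM there from 132 UMIs, above every library of mural-like (75.5 ± 131 CPM) and endothelial-like nuclei (15.1 ± 30.2 CPM, from 2 UMIs). Lama2 was 2015 ± 457 CPM in mural-like and 1829 ± 349 CPM in fibroblast-like nuclei, which overlapped, but 53.3 ± 107 CPM in endothelial-like nuclei. Lama5 was endothelial-like, with 134 ± 60.7 CPM from 10 of its 13 vascular UMIs. Lamc1 was highest in mural-like nuclei (788 ± 213 CPM), as was Lamc3 (290.2 ± 112 CPM), though both overlapped with fibroblast-like nuclei. An unnamed set of 32 nuclei led by Adamtsl3, Slc26a7 and Slc47a1 held 829.98 ± 72.2 CPM of Lama2, between the endothelial-like and the other vascular levels.

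**Figure D3:**
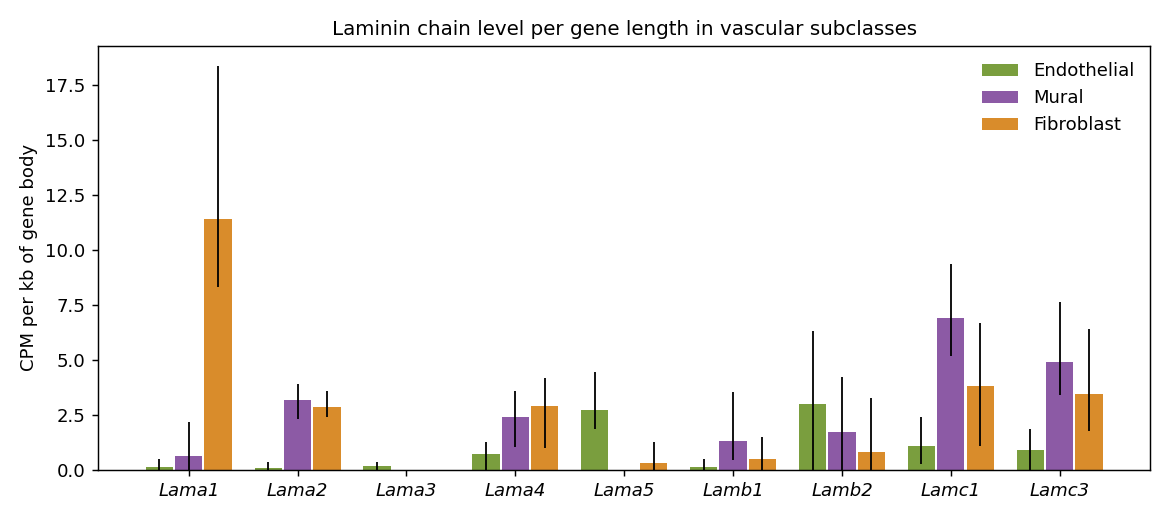
Level per gene length (vertical axis, CPM per kb of gene body) of the 9 chains in endothelial-like, mural-like and fibroblast-like nuclei; bars are means of 4 libraries from 0 and lines run from the lowest to the highest library. Lama1 marks fibroblast-like nuclei and Lama5 endothelial-like nuclei. Lamc1 and Lamc3 have their highest means in mural-like nuclei, above every endothelial-like library. For both chains, fibroblast-like libraries overlap with mural-like and with endothelial-like libraries.

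The comparison of genotypes asked which chains differed in CrT-KO cortex, population by population. Log2 fold changes (CrT-KO minus Control) came from edgeR on UMIs summed per library, with p-values adjusted over all genes tested in a population and a threshold of 0.1.

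In oligodendrocytes, both chains with enough UMIs were lower in CrT-KO. Lamc1, the value by which the family was chosen, had 248 and 357 UMIs in Control and 145 and 153 UMIs in CrT-KO, or 147 and 159 CPM against 84.7 and 85.9 CPM. The libraries of the genotypes did not overlap, and the log2 fold change was -0.86 ± 0.13 (SE). Lama2, its partner chain in the laminin of astrocyte endfeet and muscle, had 582 and 815 UMIs against 393 and 457, or 345 and 363 CPM against 229.6 and 256 CPM, with no overlap and a log2 fold change of -0.55 ± 0.12 (SE). Both of these chains had non-overlapping libraries, as did 36.7% of the 9146 genes tested in oligodendrocytes. Nothing is read from this, and no call is given for either chain, since the contrast was used to choose the family. The other 7 chains had from 2 to 35 UMIs in all oligodendrocytes and did not pass the filter on low counts.

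Lamc1 and Lama2 were also lower within single oligodendrocyte clusters. These clusters split the UMIs of the contrast that chose the family, so their values are a description and add no support. The share of all genes without overlap was not computed within clusters. Of the 6 clusters with at least 50 Lama2 UMIs, Lama2 was lower in CrT-KO in all 6 and without overlap in 4. Of the 6 clusters with at least 50 Lamc1 UMIs, Lamc1 was also lower in all 6, and without overlap in 4. Among them, cluster 6 had 3 markers of another class and 0 of oligodendrocytes among its top 10 genes by fold. In the cluster with the most nuclei (1833), Lamc1 was 147 ± 3.54 CPM in Control and 82.3 ± 0.993 CPM in CrT-KO (SD, n = 2), and Lama2 was 267 ± 22.8 CPM in Control and 137 ± 10.4 CPM in CrT-KO. Lamc1 was highest in 2 small clusters, cluster 4 (245 nuclei, led by Piezo2 and Slc5a11) and cluster 6 (64 nuclei, led by Tnr), and these held fewer of the CrT-KO oligodendrocytes. Cluster 4 made up 5.41% and 6.63% of Control and 2.97% and 3.72% of CrT-KO oligodendrocytes, and cluster 6 made up 2.18% and 1.20% of Control and 0.809% and 0.876% of CrT-KO oligodendrocytes. Cluster 6 carried OPC markers at a summed level of 27387 CPM, and the summed OPC markers over all oligodendrocytes were 2091 and 1568 CPM in Control and 1276 and 1321 CPM in CrT-KO. With the level of each cluster held at its value over all 4 libraries, the cluster shares of UMIs gave a log2 ratio of -0.10 for Lamc1 and 0.01 for Lama2. The observed log2 ratios of mean CPM were -0.84 and -0.54, and the part of the clusters in them was not tested. Without clusters 4 and 6, a choice made after seeing the data, the log2 fold changes were -0.88 ± 0.14 for Lamc1 and -0.53 ± 0.12 for Lama2.

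Marker lists moved in both directions in oligodendrocytes, and their part in the lower Lamc1 and Lama2 was not tested. The oligodendrocyte markers summed to 25919 and 24445 CPM in Control and to 23342 and 23062 CPM in CrT-KO, and the markers of inhibitory neurons to 4520 and 4339 CPM in Control and 3890 and 3775 CPM in CrT-KO. Both lists were lower in CrT-KO without overlap. In the same nuclei, astrocyte markers summed to 379.6 and 383 CPM in Control and to 503 and 492 CPM in CrT-KO, and vascular markers to 27.3 and 40.5 CPM in Control and 50.8 and 18.5 CPM in CrT-KO. The median depth of oligodendrocyte nuclei was 1346.5 and 1366.5 UMIs in Control and 1416.5 and 1220.0 UMIs in CrT-KO, so that the genotypes overlapped.

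**Figure D4:**
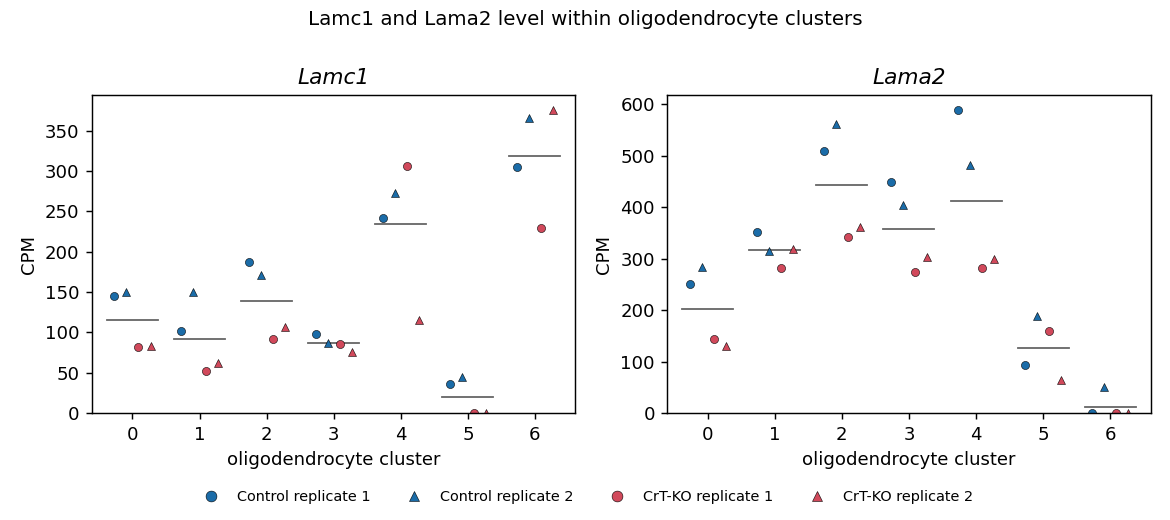
Level of Lamc1 and Lama2 (vertical axis, CPM) in the 7 oligodendrocyte clusters (horizontal axis), with 1 point per library and a line at the mean. In clusters 0 and 2 both CrT-KO libraries lie below both Control libraries for both chains, while Lamc1 overlaps in clusters 4 and 6.

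In OPCs, Lamc1 was lower in CrT-KO in the same direction, with 316 and 263 CPM in Control and 229 and 187 CPM in CrT-KO. The libraries did not overlap, but the log2 fold change of -0.45 ± 0.18 (SE) did not pass the test (edgeR adjusted p = 0.862). Lama4 overlapped between genotypes in OPCs, with -0.28 ± 0.25 (SE). Of the 2 chains tested, 0 were called (0.017% of 5875 genes were), and 1 had non-overlapping libraries (34.3% of all genes did). CrT-KO replicate 2 had 119 OPCs and 57 Lamc1 UMIs, the fewest of the 4 libraries.

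In inhibitory neurons, Lamc1 was 85.9 and 73.6 CPM in Control and 69.5 and 63.8 CPM in CrT-KO. Its log2 fold change of -0.24 ± 0.10 (SE) missed the threshold (edgeR adjusted p = 0.888). The mean was lower in CrT-KO in 6 of 6 inhibitory subclasses with at least 50 UMIs, the unnamed nuclei counted as 1 of them, and without overlap in 4, while PV-like and VIP-like nuclei overlapped and VIP-like nuclei differed by a log2 ratio of only -0.0016. Of the 16 inhibitory clusters with at least 50 Lamc1 UMIs, the mean was lower in 12 and higher in 4, without overlap in 5 and 1 of these. The core myelin genes, which mainly oligodendrocytes make, had negative log2 fold changes in 12 of 12 tested in inhibitory neurons. Their median was -0.34 against -0.00 for all genes, and the part of RNA from oligodendrocytes in the Lamc1 difference was not tested. The 6 other chains tested in inhibitory neurons had log2 fold changes from -0.07 to 0.58. The highest, that of Lama5 from 42 UMIs, was 0.03 without Control replicate 1 and 1.57 without Control replicate 2. Subclasses were not tested, and the share of all genes without overlap was not computed for them. Of the inhibitory subclasses with at least 50 UMIs of a chain, Lamb1 did not overlap between genotypes in 1 of 5. Lama1 and Lama3 did not overlap in 1 of 3 each, Lama4 in 1 of 2 and Lama2 in 0 of 2. Nothing is read from these separations. In PV-like nuclei, Lamb1 was 34.7 and 29.95 CPM in Control and 13.5 and 18.2 CPM in CrT-KO, and Lama1 was 14.5 and 14.98 CPM in Control and 8.57 and 9.09 CPM in CrT-KO. Both were lower in the CrT-KO libraries, as was Lama4 in SST-like nuclei by a log2 ratio of -0.16. Lama3 in VIP-like nuclei was higher in CrT-KO, by a log2 ratio of 0.83. Of the 7, 0 were called (0.0808% of 12372 genes were), and 1 had non-overlapping libraries (33.4% of all genes did).

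In excitatory neurons, Lamc1 overlapped between genotypes, with 71.1 and 68.8 CPM in Control and 71.3 and 63.1 CPM in CrT-KO and a log2 fold change of -0.01 ± 0.08 (SE). Lama2 was higher in CrT-KO there, opposite to oligodendrocytes, with 11.9 and 12.0 CPM in Control and 16.6 and 14.9 CPM in CrT-KO. Its log2 fold change of 0.44 ± 0.11 (SE) did not pass the test (edgeR adjusted p = 0.244). Of 4 excitatory subclasses with at least 50 Lama2 UMIs, 2 did not overlap. These were the nuclei with no subclass name and the L4/5 IT-like nuclei, with 23.7 and 22.2 CPM in Control and 32.1 and 34.6 CPM in CrT-KO, whereas L2/3 IT-like nuclei overlapped, with 11.7 and 16.9 CPM against 17.7 and 14.7 CPM. L6 CT-like nuclei overlapped too and had the lower mean in CrT-KO, with 5.17 and 1.91 CPM against 3.95 and 1.42 CPM. Astrocyte markers in excitatory neurons summed to 719.7 and 679 CPM in Control and 698 and 621 CPM in CrT-KO, and their part in the Lama2 difference was not tested. Of the 7 chains tested, 0 were called (0.203% of 13764 genes were), and 2, Lama2 and the sparse Lama1 (42 UMIs in all), had non-overlapping libraries (38.5% of all genes did).

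In astrocytes, Lama2 was 1111 and 1307 CPM in Control and 1457 and 1539 CPM in CrT-KO, with a log2 fold change of 0.29 ± 0.17 (SE), which was 0.17 without Control replicate 1 and 0.47 without Control replicate 2. Lama3 was 157 and 147 CPM in Control and 82.6 and 139.6 CPM in CrT-KO, with -0.45 ± 0.28 (SE). Neither passed the test (edgeR adjusted p = 0.997 for both), although both had non-overlapping libraries, as did 33.1% of all genes, and 0.0203% of 4929 genes were called. Control replicate 1 held only 61 astrocytes. The Lama3 difference rested on CrT-KO replicate 1, since the log2 fold change was -0.08 without it and -0.90 without CrT-KO replicate 2.

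In vascular nuclei, Lamc1 was 465 and 439.6 CPM in Control and 411 and 295 CPM in CrT-KO, with a log2 fold change of -0.31 ± 0.33 (SE), which was -0.65 without CrT-KO replicate 1 and -0.12 without CrT-KO replicate 2. It was the 1 chain of 5 tested whose libraries did not overlap (32.4% of all genes). The others had log2 fold changes from -0.41 for Lamc3 to 0.38 for Lama1. None of the 5 passed the test in edgeR, nor did any of the 2318 genes (0% called), of which 98 had an unadjusted p under 0.05, and DESeq2 called 0 genes with 7 under 0.05. In microglia, Lamc1 was the 1 chain tested, with 27.97 and 42.3 CPM in Control and 52.6 and 20.5 CPM in CrT-KO. It gave a log2 fold change of 0.05 ± 0.39 (SE) and neither a call (0.0414% of 7246 genes) nor a separation of the libraries (35.5% of all genes).

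**Figure D5:**
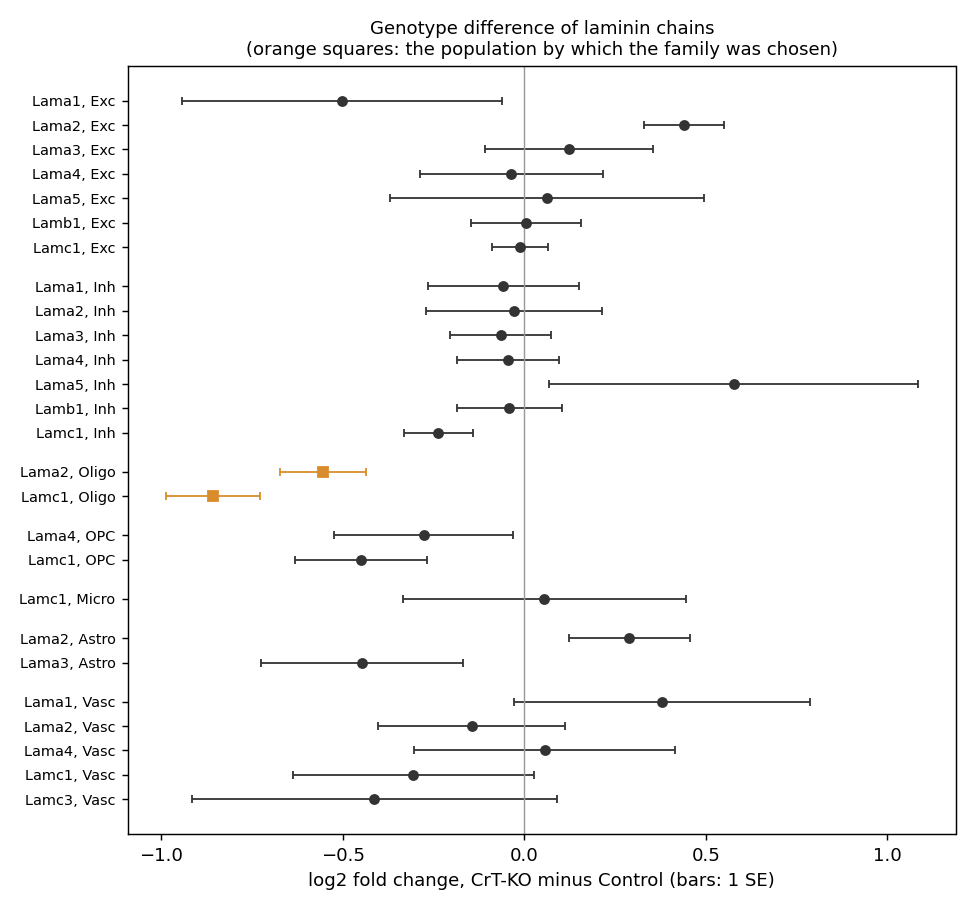
Log2 fold change (horizontal axis, CrT-KO minus Control, bars of 1 SE) of each chain that passed the filter on low counts, by population. Lamc1 is negative in oligodendrocytes, OPCs, inhibitory neurons and vascular nuclei and near 0 in excitatory neurons, while Lama2 is negative in oligodendrocytes and positive in excitatory neurons and astrocytes; orange squares mark the population whose values chose the family.

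Over the 7 populations and 6 lists (laminin receptors, dystroglycan glycosylation, dystrophin complex, other basement membrane proteins, netrins and other genes with laminin domains, and core myelin), 1 gene passed the test in 1 population, where the share of all genes called was between 0% and 0.203% by population. That gene, Col15a1, a basement membrane collagen, was lower in CrT-KO excitatory neurons, with 159 and 146 UMIs in Control and 71 and 65 UMIs in CrT-KO. The log2 fold change was -1.25 ± 0.18 (SE), with an edgeR adjusted p = 0.0333. It was the 1 gene called of 19 tested from its list in excitatory neurons, where 0.203% of all genes were called. The lists were chosen with earlier results of these data known, Col15a1 among them. This p-value is therefore a description and gives no independent support. Col15a1 was not followed over the alternative settings.

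In oligodendrocytes, 6 of the 12 laminin receptors found in the matrices were tested, and 0 passed in either direction. Over all genes tested in oligodendrocytes, 0.164% were called and 50.5% had a negative log2 fold change. The receptors had a median log2 fold change of 0.15, with 2 of 6 negative, against a median of -0.00 for all genes. The most abundant were the integrin subunits Itgb1, with 44.9 and 45.4 CPM of tested genes in Control and 48.6 and 60.7 CPM in CrT-KO, and Itgb4, with 43.7 and 44.5 CPM in Control and 30.1 and 29.8 CPM in CrT-KO. The Itgb4 log2 fold change of -0.56 ± 0.19 (SE) did not pass (edgeR adjusted p = 0.460), although its libraries did not overlap. Of the genes that glycosylate dystroglycan so that it can bind laminin, 10 of 18 were tested, with a median of 0.04 and 0 called.

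The dystrophin complex, which links dystroglycan to the cytoskeleton, had 13 of 16 genes tested in oligodendrocytes, 9 of them with positive log2 fold changes, a median of 0.20 and 0 called. Its most abundant genes were Dtna, with 589.7 and 631 CPM in Control and 675 and 744 CPM in CrT-KO, and Sgcz, with 552 and 599 CPM in Control and 799.8 and 717 CPM in CrT-KO (0.40 ± 0.11 SE on the log2 scale, edgeR adjusted p = 0.291). Basement membrane partners were sparse in oligodendrocytes, with 6 of 23 tested, a median of 0.14 and 0 called, led by Smoc1 (log2 fold change 0.48 ± 0.17 SE) and the heparan sulphate proteoglycan agrin, Agrn (-0.34 ± 0.26 SE). Of the netrins and related genes, 4 of 8 were tested, with a median of 0.07 and 0 called, led by Megf9 (-0.11 ± 0.14 SE) and Ntng1 (0.42 ± 0.17 SE). All 16 core myelin genes were tested, 8 with negative log2 fold changes, with a median of -0.02 and 0 called. Mbp, which encodes a major protein of compact myelin, had a log2 fold change of -0.22 ± 0.12 (SE).

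The genes most like each chain were ranked by Pearson's r of log2(CPM + 1) over 28 points, 7 populations in each of 4 libraries, among 12382 genes. The points share libraries and depth, so r is a description. Lama2 was most like Prom1 (r = 0.94), Add3 (0.93) and Ctnna1 (0.92). Lama4 was most like Akap12 (0.94), Agbl1 (0.92) and Sulf1 (0.91), and Lamc1 most like Cald1 (0.92), Cntln (0.90) and Sema5a (0.89). Lama3 (Adamtsl5, 0.86; Itsn1, 0.84; Slc4a4, 0.81) and Lamb1 (Filip1, 0.82; Ror2, 0.82; Dzip3, 0.78) had less similar neighbours. The other chains had too few UMIs to be ranked.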

How the data were processed

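The authors sorted nuclei by flow cytometry, prepared droplet libraries with a 10x Genomics kit and counted UMIs with Cell Ranger 3.1.0 on GRCm38, with introns included. The deposited matrices hold these raw counts with no cell type annotation. Whether counting used strand is not given in the sources used here. Scrublet (scanpy 1.11.5) marked 241, 388, 308 and 299 doublets in the 4 libraries. Counts scaled to 10000 per nucleus and logged, 3000 variable genes without laminin genes, 30 components, 20 neighbours and Leiden clustering (igraph 0.11.9, resolution 1.0) gave 44 clusters, of which 37 were named from 159 markers. A cluster needed at least 20 nuclei and 3 markers, each in 10% of its nuclei, and glia a mean score of 1.0; subclasses needed a score of 0.5. Inside named classes, clusters short of class markers were unnamed again (175 nuclei led by Reln and Trp73). The data had been seen when these limits were set. Names were rebuilt here, so differences from the study may come from them.

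UMIs summed per library and population were tested with edgeR 4.0.16 in R 4.3.3 (quasi-likelihood, TMM, filterByExpr with a minimum count of 10 and a minimum total of 15, Benjamini-Hochberg adjustment, threshold 0.1). Standard errors came from the fold change and F statistic. The p-values set the genotype difference against the spread within genotypes, each of 2 animals. The estimate of that spread borrowed from all tested genes. CPM are UMIs per 1000000 UMIs of the population, except for the partner genes, where they are scaled to tested genes with TMM factors. Coordinates are from GENCODE vM21, which held 21816 of the 21933 identifiers. The test was tested on simulated data. Alternatives were DESeq2 1.42.0, no TMM, no filter, a block for the replicate number, omission of each library in turn, retained doublets, laminin genes in clustering and a threshold of 0.05. The chains and gene lists were chosen with earlier results of these data known. Named were all chains, list genes called anywhere and the 2 per list most abundant in Control oligodendrocytes. Some of these genes are not reported here.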

Additional observations from a re-analysis of the deposited data

Results flagged for a closer look

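Lama2 differed in direction between populations by the order of its libraries, though it did not pass the edgeR test in excitatory neurons or astrocytes. Both CrT-KO libraries lay below both Control libraries in oligodendrocytes and above them in excitatory neurons, and the log2 fold change in oligodendrocytes was lower than that in excitatory neurons by a difference of -0.99. Both CrT-KO libraries also lay above both Control libraries in astrocytes, a difference between the log2 fold changes of -0.84. Of all genes tested in oligodendrocytes, 18.4% had both CrT-KO libraries below both Control libraries. The share with both above was 18.3% in excitatory neurons and 16.7% in astrocytes. Neither difference was tested, and the oligodendrocyte value was part of the contrast that chose the family.

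The 4209 unnamed nuclei were used in no comparison and held laminin UMIs above the limit that a count of 0 allows. They had 2534 UMIs of Lamc1, 489 of Lama2, 373 of Lamb1, 284 of Lama3, 278 of Lama4, 153 of Lama1, 33 of Lama5 and 19 of Lamc3. Their Lamc1 levels of 76.0 and 80.6 CPM in Control and 77.3 and 73.6 CPM in CrT-KO overlapped between genotypes.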

How the results depend on the processing

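Over 11 alternatives each, the log2 fold changes in oligodendrocytes ran from -0.92 to -0.66 for Lamc1 and from -0.66 to -0.45 for Lama2, a description, since this contrast chose the family. Counts of called genes also moved. Against 28 in excitatory neurons, 10 in inhibitory neurons, 15 in oligodendrocytes, 1 in OPCs, 3 in microglia, 1 in astrocytes and 0 in vascular nuclei, the counts that moved by over 1.5 times were as follows, and the cause was not tested. DESeq2 called 77, 4, 2, 0 and 0 genes in the first 5 of these populations. Without the filter, 4, 57, 0, 6, 9 and 2 were called in the first 6. Without TMM, 29 were called in oligodendrocytes, 0 in OPCs and 2 in astrocytes. With doublets kept, 7, 13 and 2 were called in the same 3 populations. With laminin genes in clustering, 3 were called in oligodendrocytes. At a threshold of 0.05, 11 were called in excitatory neurons, 6 in inhibitory neurons, 2 in oligodendrocytes and 0 in OPCs. Leaving out a library gave 0 to 17, 23 to 84, 18 to 47, 0 to 8, 5 to 21, 2 to 26 and 0 to 10 called genes in the order above.

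With the replicate number as a block (replicate block), 392, 96, 150, 9, 14 and 2 genes were called in excitatory neurons, inhibitory neurons, oligodendrocytes, OPCs, astrocytes and vascular nuclei, and Lama2 in excitatory neurons had an edgeR adjusted p of 0.0396 (0.0396 to 0.853 over its alternatives). The labels do not say that the numbers pair the animals, and deviations of same-numbered libraries correlated at -0.02 to 0.28.

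Some log2 fold changes turned sign. Lamb1 in excitatory neurons became -0.042 without TMM. Lama2 in inhibitory neurons became 0.0052 with the replicate block and 0.0027 with laminin genes in clustering. Lamc1 in microglia became -0.0011 with the replicate block and -0.051 with doublets kept. Lama4 in vascular nuclei became -0.014 in DESeq2 and -0.049 with the replicate block. Leaving out a library turned the sign in excitatory neurons of Lama3 (-0.19 to 0.52), Lama4 (-0.45 to 0.55), Lama5 (-0.36 to 0.45), Lamb1 (-0.095 to 0.11) and Lamc1 (-0.088 to 0.058). In inhibitory neurons it turned Lama1 (-0.28 to 0.11), Lama2 (-0.41 to 0.53), Lama3 (-0.32 to 0.18), Lama4 (-0.27 to 0.18) and Lamb1 (-0.20 to 0.14). It also turned Lama4 in OPCs (-0.53 to 0.015), Lamc1 in microglia (-0.80 to 0.54), and Lama1 (-1.02 to 0.89), Lama4 (-0.27 to 0.22) and Lamc3 (-1.32 to 0.35) in vascular nuclei. A lone library is assumed to vary like the other group.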
